A study of Arabidopsis thaliana with 30 samples.

Results

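AT3G27870, a P-type ATPase gene, and AT2G13290, a glycosyltransferase gene, are 2 Arabidopsis thaliana genes whose RNA was lower in lec1-1 seed than in wild-type seed 24 hours after fertilization. They were picked for that difference out of the 13286 genes that the annotation names on the ATH1 array, and each is measured there by 1 probe set. The 24-hour values are therefore a description and support nothing, while the later stages were measured on other arrays. The tests of the later stages still take their spread from all ATH1 arrays, those of 24 hours included. AT3G27870 lies on chromosome 3 and AT2G13290 on chromosome 2.

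The lec1-1 mutant lacks normal function of LEAFY COTYLEDON1, one of the NF-Y transcription factor subunits and a regulator of embryo development, and both genotypes are of ecotype Ws-0. Wild-type whole seed came from 4 stages, namely 24 hours past fertilization, cotyledon, mature green and post-mature green, and wild-type seedlings were taken 3 days after imbibition. Seed of lec1-1 was sampled at the same 4 seed stages and when the embryo was globular, a stage with no wild-type counterpart here. The 10 groups have 2 ATH1 arrays each, called biological replicates in the labels. A further 5 groups, wild type at 24 hours and in mid- and late maturation, and plants labelled lec1 at 24 hours and in mid-maturation, were each hybridized to 2 AtGenome1 arrays as technical replicates, so each is 1 sample.

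P-type ATPases are membrane pumps that take a phosphate from ATP onto themselves during each transport cycle. From general knowledge, AT3G27870 belongs to the P4 class, also called aminophospholipid ATPases or flippases, which move lipids from one leaflet of a membrane to the other and work with a smaller subunit, in plants called ALIS. AT2G13290 belongs to a family of predicted N-acetylglucosaminyltransferases, enzymes that add a sugar to a glycan. The best-known member of that enzyme family, in mammals, adds the bisecting sugar of N-glycans, while the role of the plant members is not established. The annotation used gives both genes only their locus names.

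Array quality in short was as follows. The median signal of an ATH1 array was 176.8 to 217.4, and Pearson's r between the 2 arrays of a group was 0.933 to 0.982. Replicates differed most in late wild-type seed, with a standard deviation of the log2 difference of 0.612 at mature green and 0.649 at post-mature green, against 0.328 to 0.538 in the other 8 groups. A signal under 100 is treated as background. Of the 20 ATH1 arrays, 8 state an array lot. The RNA of LEC1 is not analysed here, and the genotypes are taken from the labels unchecked.

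At 24 hours the RNA of the ATPase gene AT3G27870 gave signals of 718.2 and 557.2 in wild type and 60.2 and 92.4 in lec1-1. The gene ranked above 76.7% and 71.1% of all probe sets on the wild-type arrays and above 32.4% and 37.8% on the mutant arrays. Both mutant arrays were below background, so the difference is at least 6.33-fold. The glycosyltransferase gene AT2G13290 gave 346.4 and 466.5 in wild type. Its lec1-1 arrays gave 54.0 and 16.3, at least 4.02-fold lower. Neither gene's groups overlapped, and 17.3% of all probe sets had both lec1-1 arrays below both wild-type arrays at this stage. In whole seed, fewer cells of a type and less RNA per cell cannot be told apart.

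Of all probe sets tested, 0.114% were called lower at 24 hours by limma, and the members are among these 21 by choice. The probe set just inside the threshold had means of 1261 in wild type and 671.5 in lec1-1 (adjusted p = 0.0391, limma). The lower one just outside it had 187.6 and 6.80 (adjusted p = 0.0527, limma).

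Markers of seed tissues were read beside these values. A gene counts as measured here if the annotation names it alone for a probe set, and many probe sets carry no gene name. BAN, a tannin gene of the seed coat, had 3014.7 and 2213.3 in 24-hour wild type and 858.9 and 881.6 in lec1-1, and the other measured seed coat gene, DELTA-VPE, had means of 5465 and 4836. The summed signal of these 2 of 11 seed coat markers was 7741 to 8417 in wild type and 5481 to 5931 in lec1-1. ALC, which acts in the fruit wall, had means of 6955 and 7718. The measured endosperm markers, 2 of 8 (AGL62 and IKU2), and the embryo marker, 1 of 8 (BBM), lay below background in both genotypes. The part of these tissues in the 24-hour difference was not tested.

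**Figure D1:**
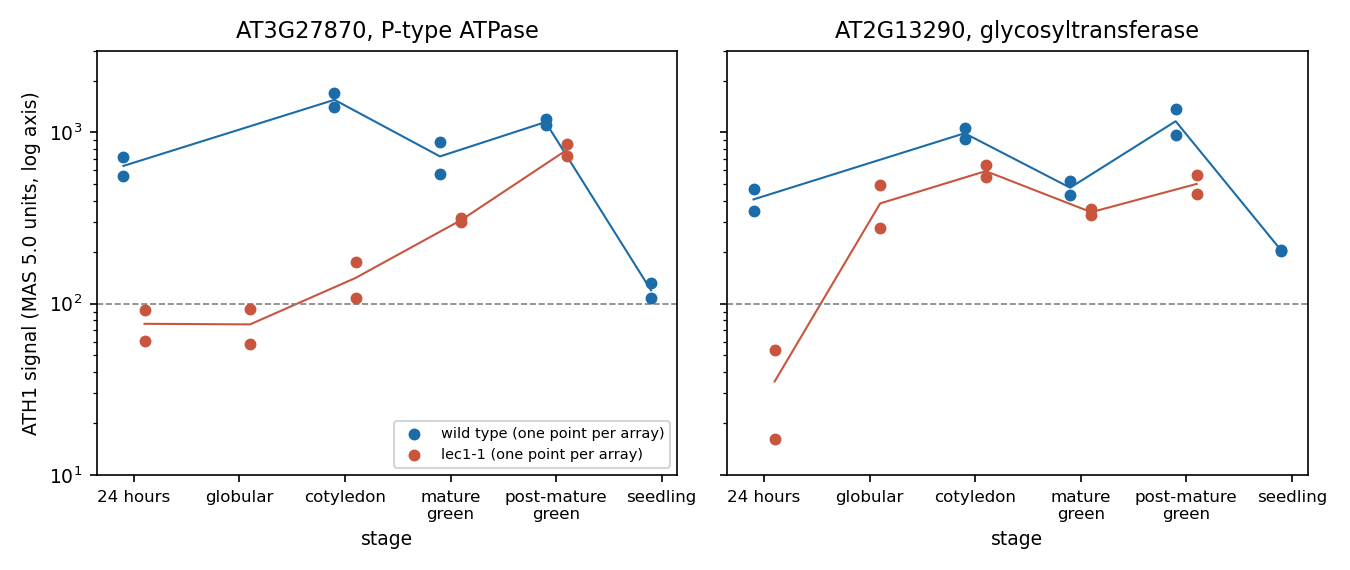
ATH1 signal (log axis) of AT3G27870 on the left and AT2G13290 on the right by stage, with 1 point per array, lines through the group means, wild type in blue (no globular sample), lec1-1 in red and the background level of 100 dashed. The lec1-1 arrays of AT3G27870 stay below background at 24 hours and the globular stage and reach 850.6 and 728.8 at post-mature green, while those of AT2G13290 are already at 494.3 and 276.0 at the globular stage.

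The values of the 2 genes diverged in lec1-1 after 24 hours. At the globular stage AT3G27870 still gave 93.1 and 58.3, below background and overlapping its 24-hour mutant values. AT2G13290 gave 494.3 and 276.0 there, above both 24-hour mutant arrays and overlapping wild type of 24 hours. The lec1-1 24-hour arrays chose the genes, so this step was not tested. From 24 hours to globular, BAN went from a mean of 870.2 to 17514 in lec1-1. The summed seed coat markers ranged from 5481 to 5931 and then from 31868 to 36784. The summed endosperm markers ranged from 87.9 to 122.0 and then from 125.9 to 157.6. ALC fell from 8134.7 and 7301.2 to 3591.4 and 4138.1, and BBM stayed below background. The part of these tissues in the step was not tested.

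At the cotyledon stage the ATPase gene was far lower in the mutant. AT3G27870 gave 1694.5 and 1407.4 in wild type, its highest level in any group, and 107.8 and 175.0 in lec1-1. The mutant mean was 9.12% of the wild-type mean, and by geometric means of the signal the gene was 11.2-fold lower. The log2 difference, taken on log2(signal + 50) as all log2 values here, was -3.08 ± 0.25 (moderated SE, n = 2 arrays per group; adjusted p = 4.95e-07, limma). Of all probe sets, 0.645% were called lower at this stage. Of the 21 probe sets called lower at 24 hours, 1 was also called lower here, and it was AT3G27870.

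AT2G13290 was not called at the cotyledon stage. It gave 1066.5 and 912.2 in wild type and 643.2 and 546.2 in lec1-1, so the mutant mean was 60.1% of the wild-type mean. The groups did not overlap, as for the 23.6% of all probe sets with both mutant arrays below both wild-type arrays here. The log2 difference was -0.69 ± 0.27 (adjusted p = 0.415, limma), with a 95% interval of -1.25 to -0.13 before any adjustment for multiple tests. Whether the 2 genes differ in their response at this stage was not tested.

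At mature green AT3G27870 was still lower in the mutant, by less. It gave 574.2 and 875.2 in wild type and 314.8 and 300.7 in lec1-1. Its mutant arrays lay below its wild-type arrays, as for 27.8% of all probe sets. The log2 difference was -1.09 ± 0.25 (adjusted p = 0.00254, limma), at a stage where 13% of all probe sets were called lower. The shrinking of the genotype difference from cotyledon to mature green was itself called, at 1.99 ± 0.35 log2 (adjusted p = 0.000558, limma), as were 18.5% of all probe sets for that change. AT2G13290 gave 523.1 and 428.4 in wild type and 329.3 and 355.4 in lec1-1, a log2 difference of -0.42 ± 0.27 that was not called (adjusted p = 0.269, limma; 95% interval -0.98 to 0.15).

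At the cotyledon and mature green stages the array lot is stated on all wild-type arrays and on none of lec1-1, and within them the lot cannot be told apart from the genotype. With the stated lot as a covariate, AT3G27870 had -3.32 at cotyledon (adjusted p = 5.21e-05, limma) and -1.33 at mature green (adjusted p = 0.0137, limma). That covariate was estimated from 24-hour lec1-1 and post-mature green wild type, the only groups whose arrays differ in it. The 24-hour lec1-1 arrays also chose the genes, so this check is not independent of the choice. The summed seed coat markers ranged from 32689 to 38772 in wild type and from 40119 to 43193 in lec1-1 at cotyledon, and from 7824 to 12556 and from 6048 to 8529 at mature green. BBM had means of 89.5 and 25.2 at cotyledon and 250.8 and 12.0 at mature green, and ALC 745.4 and 1001 and then 184.9 and 409.1. The summed endosperm markers ranged from 20.7 to 99.0 in wild type and from 79.1 to 139.6 in lec1-1 at cotyledon, and from 90.9 to 133.3 and from 163.7 to 191.9 at mature green. At cotyledon AGL62, IKU2 and BBM were each below background on all arrays of both genotypes. IKU2 was above background at mature green in lec1-1 (163.5 and 101.2) and not in wild type (33.0 and 38.8). The part of these tissues in the differences was not tested.

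At post-mature green AT2G13290 was called lower in the mutant and AT3G27870 was not, and the difference between the genes was not tested. AT2G13290 gave 960.9 and 1365.0 in wild type and 561.7 and 439.8 in lec1-1, a mutant mean of 43.1% of wild type. The log2 difference was -1.13 ± 0.27 (adjusted p = 0.00212, limma), at a stage where 20.5% of all probe sets were called lower. AT3G27870 gave 1103.9 and 1195.5 in wild type and 850.6 and 728.8 in lec1-1, not overlapping and lower, as were 34.2% of all probe sets. Its difference of -0.52 ± 0.25 was not called (adjusted p = 0.100, limma; 95% interval -1.04 to 0.00293). The change of the genotype difference from mature green to post-mature green was not called for either gene, at 0.57 ± 0.35 for AT3G27870 (adjusted p = 0.300, limma) and -0.71 ± 0.38 for AT2G13290 (adjusted p = 0.224, limma), beside 15.9% of all probe sets called for that change. Of the 21 probe sets called lower at 24 hours, 9 were called lower at mature green and 9 at post-mature green.

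Here 1 wild-type array states the lot. Without it, among arrays that state none, AT2G13290 was at -1.37 (adjusted p = 0.00237) and AT3G27870 at -0.57 (adjusted p = 0.151, both limma). At the same stage the fruit wall gene ALC had means of 140.1 in wild type and 397.8 in lec1-1, BBM 219.1 and 11.3, and the summed seed coat markers ranged from 537.6 to 602.8 and from 292.9 to 366.4. The summed endosperm markers ranged from 41.6 to 178.9 in wild type and from 19.8 to 21.8 in the mutant. The part of these in the late differences was not tested.

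Within wild type, both genes were lower at mature green than at the cotyledon and post-mature green stages on either side. From cotyledon to mature green AT3G27870 fell by 1.07 ± 0.25 log2 (adjusted p = 0.00240) and AT2G13290 by 0.99 ± 0.27 (adjusted p = 0.00784, both limma), where 18.2% of all probe sets were lower. The first call ended without wild-type mature green replicate 1, where AT3G27870 had -0.79 (adjusted p = 0.0527). The second ended without wild-type cotyledon replicate 1, where AT2G13290 had -0.88 (adjusted p = 0.0704), and without wild-type mature green replicate 2, where it had -0.85 (adjusted p = 0.0552).

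From mature green to post-mature green AT2G13290 rose by 1.19 ± 0.27 log2 (adjusted p = 0.00179, limma) in wild type, where 16.3% of probe sets were higher. AT3G27870 rose by 0.66 ± 0.25 (adjusted p = 0.0462, limma). That call ended without wild-type mature green replicate 1 (0.37, adjusted p = 0.340), post-mature green replicate 1 (0.71, adjusted p = 0.0855) or post-mature green replicate 2 (0.60, adjusted p = 0.147).

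Both genes were low in seedlings. AT3G27870 gave 131.3 and 108.2 there, lower than in post-mature green wild-type seed by -2.82 ± 0.25 log2 (adjusted p = 1.01e-08, limma). AT2G13290 gave 203.8 and 205.7, lower by -2.23 ± 0.27 (adjusted p = 6.95e-07, limma). In this comparison 32.5% of all probe sets were lower.

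Within lec1-1 the ATPase gene climbed late. AT3G27870 rose from cotyledon to mature green by 0.92 ± 0.25 log2 (adjusted p = 0.00633, limma), where 18.8% of probe sets were higher, and wild type fell over the same step. It rose again to post-mature green by 1.23 ± 0.25 (adjusted p = 0.00709, limma), where 1.24% were higher. The first rise was not called without lec1-1 cotyledon replicate 1 (0.67, adjusted p = 0.104) and the second not without lec1-1 post-mature green replicate 1 (1.12, adjusted p = 0.110). From globular to cotyledon its difference of 0.60 ± 0.25 was not called (adjusted p = 0.123, limma), in a comparison where 15.2% of probe sets were called.

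AT2G13290 fell in lec1-1 from cotyledon to mature green by 0.71 ± 0.27 log2 (adjusted p = 0.0441, limma), where 17.8% of probe sets were lower. This call ended with any 1 of the 4 arrays left out, with differences of -0.82 to -0.60. Its steps from globular to cotyledon (0.61 ± 0.27, adjusted p = 0.149) and from mature green to post-mature green (0.48 ± 0.27, adjusted p = 0.417, both limma) were not called.

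Ordered by mean signal, AT3G27870 was highest in cotyledon-stage wild type (1551 ± 203, SD, n = 2) and then post-mature green wild type (1150 ± 64.8), with no overlap between these groups. Post-mature green lec1-1 (789.7 ± 86.1) overlapped mature green wild type (724.7 ± 213), which overlapped 24-hour wild type (637.7 ± 114). Mature green lec1-1 (307.8 ± 9.97) stood alone below them. Cotyledon lec1-1 (141.4 ± 47.5) overlapped seedlings (119.8 ± 16.3), and 24-hour lec1-1 (76.3 ± 22.8) overlapped globular lec1-1 (75.7 ± 24.6) at the bottom.

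For AT2G13290 post-mature green wild type (1163 ± 286, SD, n = 2) overlapped cotyledon wild type (989.4 ± 109), and these were the 2 highest groups. Below them came cotyledon lec1-1 (594.7 ± 68.6), post-mature green lec1-1 (500.8 ± 86.2), mature green wild type (475.8 ± 67.0), 24-hour wild type (406.5 ± 84.9), globular lec1-1 (385.2 ± 154) and mature green lec1-1 (342.4 ± 18.5), each overlapping the next. Seedlings (204.8 ± 1.34) and 24-hour lec1-1 (35.2 ± 26.7) stood apart from these and from each other.

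On AtGenome1, a probe set for AT2G13290 gave a second look at the glycosyltransferase gene in other hybridizations, while AT3G27870 had no named probe set there. At 24 hours its average difference was 762.3 and 821.3 in wild type and 269.1 and 341.8 in lec1, a ratio of 0.386. At mid-maturation it was 2173.6 and 2639.2 in wild type and 959.9 and 1160.4 in lec1, a ratio of 0.441. Late-maturation wild type gave 1424.0 and 1518.0. The lec1 arrays lay below the wild-type arrays at both stages. After values under 250 were raised to 250, the same held for 25.2% of all probe sets at 24 hours and 27.6% at mid-maturation. AT2G13290 itself was above 250 on every array. Of its relatives on this array, AT1G12990 had 24-hour means of 583.0 in wild type and 322.7 in lec1 and mid-maturation means of 315.9 and 235.8.

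With values under 250 raised to 250, the AtGenome1 log2 differences of AT2G13290 were -1.38 at 24 hours and -1.18 at mid-maturation, both past 2-fold lower. Of all AtGenome1 probe sets, 1.92% were at least 2-fold lower at 24 hours and 4.55% at mid-maturation. With 1 sample per group there is no replicate check and no test, and nothing in the labels says whether the RNA was the same as on ATH1.

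**Figure D2:**
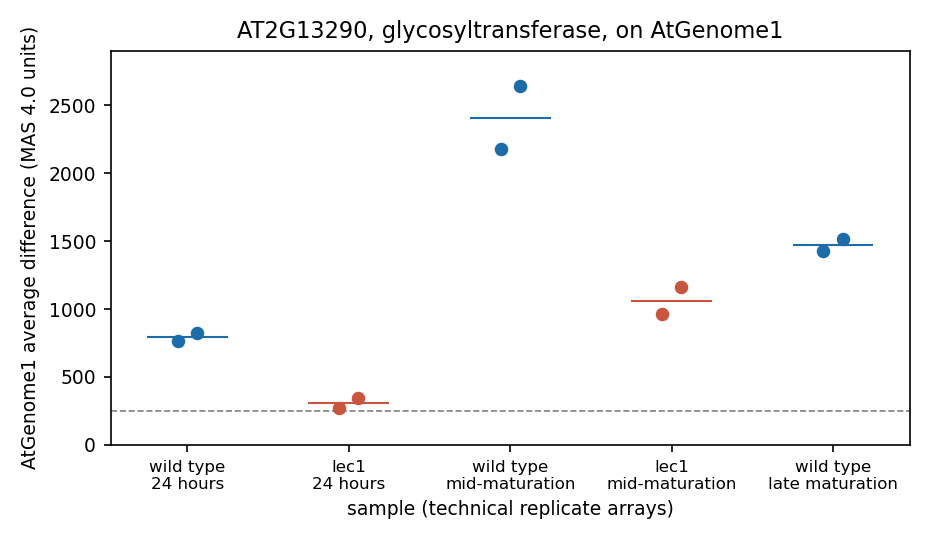
AtGenome1 average difference of AT2G13290 (linear axis from 0) in the 5 samples, with 1 point per technical replicate array, short lines at the mean and the floor of 250 dashed. Both lec1 samples (means 305.4 and 1060) lie below the wild-type samples of the same stage (791.8 and 2406).

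Of 12 genes listed as P4 ATPases, 9 had a named probe set, and 7 besides AT3G27870 passed the filter on dim signals, while AT3G25610 had no array at 100. At 24 hours 0 of these 7 were called by limma, against 0.119% of all probe sets, with a median difference of -0.00097 log2 beside 0.01 over all probe sets tested. At the cotyledon stage 0 of 7 were called, against 0.71%, with a median of -0.01 beside -0.00062. At an unadjusted p under 0.05, 0 of the 7 stood at 24 hours and 1 at the cotyledon stage, AT1G54280, with a difference of 0.90. With signals under 100 raised to 100, AT1G54280 was called higher at cotyledon, by 0.68 (adjusted p = 0.0219, limma).

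AT1G72700, the P4 ATPase gene with signals of at least 445.2 on all arrays, had cotyledon means of 802.9 in wild type and 799.6 in the mutant. At mature green it was lower, 804.0 and 972.5 against 445.2 and 468.5, by -0.88 ± 0.16 log2 (adjusted p = 0.000275, limma), the 1 call among the 7 where 28.7% of all probe sets were called. AT1G68710 gave 1471.0 and 1645.9 in 24-hour wild type and 1528.9 and 1449.0 in lec1-1, at a stage where AT3G27870 was below background in the mutant. At post-mature green 1 of the 7 was higher and 1 lower, where 44.1% of all probe sets were called.

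Those late calls were AT1G17500, higher by 1.01 ± 0.26 (adjusted p = 0.00387, limma), and AT3G13900, lower by -0.88 ± 0.33 (adjusted p = 0.0357, limma). AT3G13900 was not called with offset 1 (adjusted p = 0.211) or with the lot covariate (0.0799, both limma). With the contrast's groups alone AT1G17500 and AT3G13900 were not called (adjusted p = 0.0953 and 0.0916, limma). Neither passed without wild-type post-mature green replicate 1, where they had 0.63 (adjusted p = 0.0739) and -0.70 (adjusted p = 0.174). AT3G13900 also did not pass without lec1-1 post-mature green replicate 1 (adjusted p = 0.0681) or replicate 2 (adjusted p = 0.159). ACA.l (AT1G13210, which the annotation names after a calcium ATPase) and AT1G26130 were not called at any of the 4 stages, and AT1G54280 only at cotyledon with that floor.

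Of the 5 ALIS subunit genes 3 were measured, and 0 were called up to mature green by limma, with 1 (AT1G54320, at mature green) at an unadjusted p under 0.05. Over all probe sets 0.119%, 0.71% and 28.7% were called at these 3 stages and 44.1% at post-mature green. AT1G54320 was well above background throughout, with signals of 1537.4 to 3187.4 over the 20 arrays and a cotyledon difference of 0.29. AT5G46150 was called at post-mature green, with a mean of 69.8 in wild type against 293.4 in the mutant, at least 2.85-fold higher (adjusted p = 0.00244, limma). AT1G16360 reached 100 on 2 arrays. The other P-type ATPases, the proton, calcium and heavy metal pumps, had 0 of 34 listed genes with a named probe set and are not analysed here.

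Of 6 listed genes of its family 5 were measured, and 0 of the other 4 were called by limma at 24 hours (median -0.18 log2) or cotyledon (0.07), where 0.119% and 0.71% of all probe sets were called, and 0 had an unadjusted p under 0.05 at either stage. AT3G27540 was called lower at post-mature green, as were 20.5% of all probe sets. It gave 417.8 and 544.5 in wild type and 226.3 and 235.6 in lec1-1, a difference of -0.91 ± 0.24 (adjusted p = 0.00406, limma). It was also called lower at mature green, by -0.66 ± 0.24 (adjusted p = 0.0431, limma), where 13% of all probe sets were lower. The mature green call was lost with offset 1 (adjusted p = 0.0631) and without a filter (0.0587, both limma). It was also lost with the lot covariate (adjusted p = 0.0983) and with the contrast's groups alone (0.203, both limma). That call ended without wild-type mature green replicate 1 (-0.46, adjusted p = 0.262), lec1-1 replicate 1 (-0.80, adjusted p = 0.0523) or lec1-1 replicate 2 (-0.51, adjusted p = 0.212).

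AT1G12990 went the other way at post-mature green, where 44.1% of all probe sets were called and 20.5% were called lower. Its wild-type arrays gave 25.0 and 34.8 against 272.4 and 253.2 in the mutant, at least 2.63-fold higher (adjusted p = 9.72e-06, limma), and its highest mean was in seedlings, 438.6. AT1G67880 and AT3G01620 were not called at any of the 4 stages. Of 11 listed enzymes of N-glycan processing in the Golgi, 2 were measured. GMII, a mannosidase, was not called, except at post-mature green with a floor of 100 (-0.43, adjusted p = 0.0443) or quantile normalization (-0.45, adjusted p = 0.0463, both limma). AT2G05320 was lower at post-mature green by -0.91 ± 0.29 (adjusted p = 0.0163, limma), and not called without wild-type replicate 1 (-0.84, adjusted p = 0.0698) or lec1-1 replicate 2 (-0.82, adjusted p = 0.0867). With the groups of the contrast alone it was not called either (adjusted p = 0.0538, limma).

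**Figure D3:**
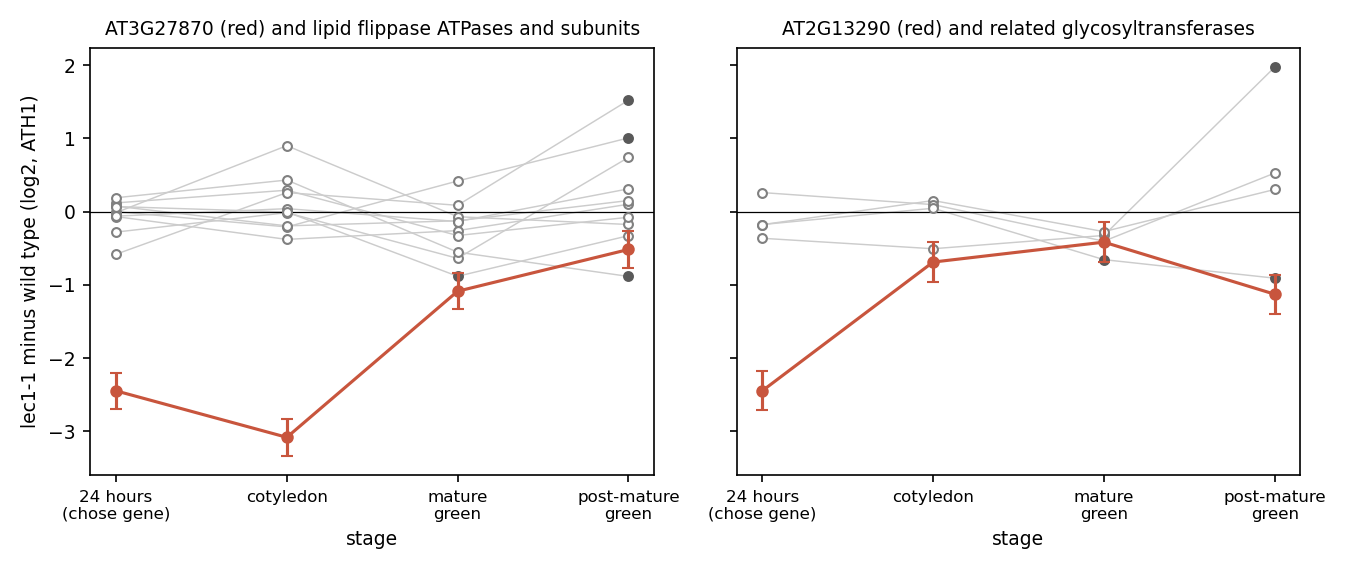
Log2 difference of lec1-1 minus wild type on ATH1 by stage, for AT3G27870 with the P4 ATPase and ALIS genes on the left and AT2G13290 with its family on the right; red points are the named gene with its moderated SE, grey points its relatives, filled where called. The 24-hour points are those that chose the named genes; at cotyledon AT3G27870 stands at -3.08, and at post-mature green AT2G13290 stands at -1.13.

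The gene next to AT3G27870 in the annotation order, AT3G27880, had 24-hour means of 296.9 in wild type and 304.7 in the mutant, followed by 221.8 and 313.0 at cotyledon, and was not called (adjusted p = 1.00 and 0.755, limma). On the other side the nearest gene with a named probe set was AT3G27770, with 10 genes in between, and it was not called at any stage either. The nearest measured neighbours of AT2G13290 were AT2G13350, with 24-hour means of 110.2 and 163.0 and no call (adjusted p = 1.00, limma), and AT2G13150, whose means were under background.

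Over the 10 ATH1 group means of log2 values, the profiles of AT3G27870 and AT2G13290 had a Pearson's r of 0.73, above that of 99.5% of the probe sets naming 1 gene with AT3G27870. Both were chosen on 2 of these groups, so the value is a description. The 5 probe sets most like AT3G27870 among 10360 were those of AT4G16750 (r = 0.88), AT2G47950 (0.88), AT5G23110 (0.87), AT5G22690 (0.86) and AT2G40910 (0.86). Of these, 3 had mean signals of at most 124.9 in every group, and AT5G23110 was well above background, with cotyledon means of 647.8 in wild type and 410.2 in lec1-1. The 5 most like AT2G13290 were AT2G20560 (0.91), AT1G56660 (0.91), AT5G61040 (0.89), AT5G47260 (0.88) and AT4G08230 (0.88). All but AT2G20560 were dim, with group means of at most 226.9. AT2G20560 had 24-hour means of 182.4 in wild type and 35.7 in lec1-1 and cotyledon means of 1082 and 559.3.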

How the data were processed

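Per the labels, total RNA of seed was converted to biotinylated cRNA and hybridized to Affymetrix GeneChips. The deposited ATH1 values are linear intensity values made by the authors with Microarray Suite 5.0 and scaled to 500 on each array; for the 2 globular-stage arrays the scaling is not given in the sources used here. The deposited AtGenome1 intensity values are average differences of Microarray Suite 4.0 scaled to 2500. The AtGenome1 descriptions name the ATH1 chip, against their titles.

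Probe sets were named through the TAIR10.1 gene table, with 13513 naming 1 gene, 503 several and 8730 none. Differences were tested on ATH1 with limma 3.58.1 in R 4.3.3 (lmFit, then eBayes allowing a trend with intensity) on values of log2(signal + 50), with all 20 arrays in 1 model (10 residual degrees of freedom). Controls (64) were dropped, and a probe set had to reach 100 on at least 2 arrays, which 18459 did. P-values are two-sided and were adjusted by Benjamini-Hochberg over these, with a threshold of 0.05. Since groups share 1 spread, that of the late wild-type stages may be understated. If a group had both arrays under 100, the fold was bounded by dividing the geometric mean of its counterpart by 100. The fit was tested on simulated data in which all groups also shared 1 spread. That test therefore cannot address a larger spread in late wild-type seed. Precision is limited by having 2 arrays in each group.

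The members and the gene lists were chosen with earlier results of these data known. Named genes were the members, measured genes of the P4 ATPase, ALIS and glycosyltransferase lists, up to 3 called genes per stage of the other lists, the 5 most similar profiles, the nearest measured neighbours and the probe sets next to the 24-hour threshold. Alternatives were the offset, a floor of 100, quantile and 75th-percentile scaling, no filter, no trend, the contrast's groups alone, array lot, a replicate block and leaving out each array. No sequence was used here.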

Additional observations from a re-analysis of the deposited data

Results flagged for a closer look

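The difference between lec1-1 and wild type changed between consecutive stages for 6 genes, by the limma interaction test with adjustment over all probe sets. Screened were the members, their tested relatives in the P4 ATPase, ALIS and glycosyltransferase lists, the N-glycan genes and the tissue markers. From cotyledon to mature green 1 of 7 other P4 ATPase genes, 1 of 3 ALIS genes and 0 of 4 other glycosyltransferase genes were called. No N-glycan gene or marker was called for that step, beside 18.5% of all probe sets. AT3G27870 changed by 1.99 ± 0.35 log2 from cotyledon to mature green (adjusted p = 0.000558), as its deficit in the mutant shrank. AT1G72700, another P4 ATPase gene, changed by -0.88 ± 0.22 over the same step (adjusted p = 0.00890), and the ALIS gene AT1G54320 by -0.62 ± 0.20 (adjusted p = 0.0389). The last did not pass without wild-type cotyledon replicate 1 (adjusted p = 0.0754) or replicate 2 (0.118), wild-type mature green replicate 2 (0.101), lec1-1 cotyledon replicate 1 (0.158) or lec1-1 mature green replicate 2 (0.0991). AT1G54320 also did not pass with quantile normalization (adjusted p = 0.0599), without the trend (0.0884) or with the groups of the contrast alone (0.0896, all limma).

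From mature green to post-mature green AT1G12990, of the glycosyltransferase family, changed by 2.30 ± 0.38 (adjusted p = 0.000395), with wild-type signals under background at the later stage. AT2G05320, of N-glycan processing, changed by -1.22 ± 0.41 (adjusted p = 0.0496), and did not pass when any of 7 of the 8 arrays was left out, with offset 1 (adjusted p = 0.0893), without a filter (0.0695), with the lot covariate (0.0747), with the replicate block (0.0532) or with the groups of the contrast alone (0.141). IKU2, the endosperm marker, changed by -1.84 ± 0.59 over this step (adjusted p = 0.0391), with signals above background on 3 of the 20 arrays. The tissue markers, IKU2 among them, were not run under the alternatives or with arrays left out. For this later step 0 of 7 other P4 ATPase genes, 0 of 3 ALIS genes and 1 of 4 other glycosyltransferase genes were called. So were 1 of 2 N-glycan genes and 1 of 2 endosperm markers, and no other tissue marker. Over all probe sets 18.5% were called for the earlier step and 15.9% for this one. Groups of 2 arrays are too small for a check of single outlying arrays.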

How the results depend on the processing

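The genotype differences of AT3G27870 at cotyledon and mature green and of AT2G13290 at post-mature green kept their direction and their call under every alternative run, as did the change of AT3G27870 from cotyledon to mature green. With 1 array left out, AT3G27870 ranged from -3.34 to -2.83 at cotyledon and from -1.37 to -0.80 at mature green (largest adjusted p = 0.0460), and AT2G13290 from -1.37 to -0.89 at post-mature green (largest adjusted p = 0.0337). Over the 304 alternative values of the members, 0 turned direction, 23 lost a call and 0 gained one.

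The calls lost were stage steps. For AT3G27870 in wild type from mature green to post-mature green, the adjusted p was 0.110 with offset 1 (0.70), 0.0564 without a filter (0.66), 0.153 with the lot covariate (0.54), 0.0510 with the replicate block (0.66), 0.0517 without the trend and 0.123 with the groups of the contrast alone (both 0.66), and the difference was 0.37 to 0.94 with 1 array left out. For AT2G13290 from cotyledon to mature green, wild type had -1.06 with offset 1 (adjusted p = 0.0639) and -1.12 to -0.85 with 1 array left out, and lec1-1 had -0.79 with offset 1 (0.155), -0.64 with 75th-percentile scaling (0.0744), -0.71 without a filter (0.0548) or the trend (0.0588) and -0.82 to -0.60 with 1 array left out. AT3G27870 from cotyledon to mature green had -1.35 to -0.79 in wild type and 0.67 to 1.18 in lec1-1, and from mature green to post-mature green 1.12 to 1.33 in lec1-1, with 1 array left out. The cause of these losses was not tested, beyond the fewer arrays or larger number of tests in some.

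At cotyledon 131 probe sets were called, with 238 at a floor of 100, 83 with the lot covariate, 326 with the contrast's groups alone and 45 to 69 with 1 array left out. At mature green 5297 were called, with 2974 under the lot covariate and 2648 with the contrast's groups alone. Among the relatives' 1184 alternative values, 0 turned direction with a call, 41 lost a call and 8 gained one, among them AT1G54280 at cotyledon with a floor of 100.

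Replicate numbers are shared between groups, but deviations of same-numbered arrays correlated at 0.13, -0.04, 0.03 and 0.01 over the 4 stages, so the replicate block is given only as an alternative. It left AT3G27870 at -3.08 at cotyledon (adjusted p = 1.21e-06) and ended 1 member call, the rise of AT3G27870 in wild type from mature green to post-mature green (adjusted p = 0.0510), and 1 among the other genes, the change of AT2G05320 from mature green to post-mature green (adjusted p = 0.0532). Among the members and their listed relatives the block changed no other call.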
